A study of Mus musculus with 18 samples.

Results

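The EGR, AP-1 and NR4A immediate early genes were followed as 10 transcripts, chosen by symbol, out of 54446 genes in the deposited table. They were 3 EGR genes (Egr1, Egr2, Egr3), 4 AP-1 subunits (Fos, Fosb, Jun, Junb) and 3 NR4A genes (Nr4a1, Nr4a2, Nr4a3), and each was matched to a single row. Expression was measured by 3′ end RNA sequencing in 18 libraries of eosinophils, 3 per group, from 2 experiments. In the Type 1 experiment the groups were ACs (apoptotic cells) alone, E. coli + ACs, IFN-γ + ACs and IFN-γ + E. coli + ACs, the last with IFN-γ given first. In the IL-4 experiment they were ACs alone and IL-4 + ACs.

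The eosinophils came from the peritoneum of Il5Tg mice on C57BL/6, a transgenic line whose eosinophil numbers are raised by IL-5, and T and B cells were removed with antibodies against Thy1.2 and B220. Wild-type thymocytes made apoptotic with dexamethasone served as ACs, given at 5 per eosinophil for 18 h, after which the eosinophils were purified again with anti-Siglec-F beads. All groups contained ACs, and eosinophils cultured without them were not analysed here. Thymus donors were 4 to 6 weeks old, and the age of the eosinophil donors is not given in the sources used here. Replicates are called biological in the methods, and for eosinophils with ACs alone a figure legend says that each came from a different mouse. Legends that show the stimulated groups speak only of different samples. The labels do not give the mouse of each library, and where libraries share a mouse the p-values measure only the spread between them.

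Immediate early genes are transcribed within minutes of a stimulus, without new protein synthesis, from promoters that are read by SRF with its ternary complex cofactors and by CREB, downstream of MAPK and calcium signals. EGR proteins are zinc finger transcription factors. FOS and JUN proteins pair through leucine zippers to form AP-1, and NR4A proteins are nuclear receptors that act without a known ligand. In myeloid cells these factors accompany activation, adhesion and differentiation, and a culture of many hours measures their sustained level rather than the first burst.

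Positions of the members other than Egr1 are given on GRCm38. Egr2 lies at chr10:67535475-67542188 (+) and Egr3 at chr14:70077203-70082614 (+). Fos lies at chr12:85473890-85477273 (+), Fosb at chr7:19302696-19310051 (-), Jun at chr4:95049034-95052222 (-) and Junb at chr8:84974484-84978718 (-). Nr4a1 lies at chr15:101254269-101274795 (+), Nr4a2 at chr2:57106830-57124003 (-) and Nr4a3 at chr4:48045153-48086447 (+). Jun overlaps the antisense gene Junos and Junb overlaps Prdx2 on the other strand. Whether the counting used strand is not given in the sources used here, so reads in those overlaps cannot be assigned with certainty.

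RefSeq promoter windows on GRCm38.p6 were matched for 8 of the 10 members, all but Egr1 and Egr3, and the 250 bases upstream of the start were searched on both strands. The half-site TGACG of the cAMP response element, read by CREB and ATF proteins, was found in 7 of the 8 genes, all but Jun, against 17.8% of 32851 windows of all genes. Among these 8 genes and within these 250 bases, a serum response CArG box, read by SRF, was found only at Egr2, against 1.5% of windows. Sequence further upstream was not searched, and Egr1 and Egr3 had no window, so sites there were not tested. The AP-1 site TGANTCA (6.7% of windows) and the NR4A site AAAGGTCA (1.3%) were in none of the 8. The EGR site GCGNGGGCG was found at Fosb, Nr4a1 and Nr4a2, against 4.7% of windows. Egr2 has 5 windows, so it had more chances of a match than the others. The Egr2 window printed below was picked as the first with both TGACG and a CArG box. Its window starting at 67535249 holds neither, and that starting at 67537316 holds only the CArG box. The windows of Fos and Junb are shown as members that fell together, and that of Egr2 as the member that moved apart from them. Whether any of these sites has a part in that difference was not tested. Capitals mark TGACG or its complement CGTCA, and in Egr2 also the CArG box that starts 72 bases upstream. They are on chr12:85473640-85473889 (+), chr8:84978749-84978998 (-) and chr10:67537619-67537868 (+). Those of Fos and Junb lie upstream of the gene positions given above. That of Egr2 lies within its gene, downstream of other RefSeq starts of the gene. Each sequence is written on the gene's own strand.
Fos: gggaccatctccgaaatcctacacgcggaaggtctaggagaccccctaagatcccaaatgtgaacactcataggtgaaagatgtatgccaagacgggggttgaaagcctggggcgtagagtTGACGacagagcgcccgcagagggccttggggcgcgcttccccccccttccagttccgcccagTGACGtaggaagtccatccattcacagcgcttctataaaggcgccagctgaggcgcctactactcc
Junb: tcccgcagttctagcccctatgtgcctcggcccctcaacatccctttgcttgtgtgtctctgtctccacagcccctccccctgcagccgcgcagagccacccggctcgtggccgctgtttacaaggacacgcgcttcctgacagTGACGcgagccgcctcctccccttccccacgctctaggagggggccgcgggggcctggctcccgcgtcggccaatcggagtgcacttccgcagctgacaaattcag
Egr2: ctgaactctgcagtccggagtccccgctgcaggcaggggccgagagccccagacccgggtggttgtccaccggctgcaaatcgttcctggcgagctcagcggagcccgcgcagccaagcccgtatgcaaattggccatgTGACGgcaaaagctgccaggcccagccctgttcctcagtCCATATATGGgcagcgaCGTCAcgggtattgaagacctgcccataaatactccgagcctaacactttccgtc

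Libraries held between 779421 and 7782072 reads on genes. Both libraries numbered 3 in the IL-4 experiment were the shallowest, with 849705 reads in IL-4 + ACs and 779421 in its ACs, so that 3 reads, the least taken as detection, stood for normalized counts of 15.42 and 16.08 there. All 12 eosinophil markers had at least 1 read in every group. All 10 peritoneal macrophage markers had at least 1 read in every group as well, and their summed normalized count per library moved with the stimuli. That sum was 14260 to 17908 in ACs, 7452 to 8888 in E. coli + ACs, 21424 to 29870 in IFN-γ + ACs and 9186 to 9326 in IFN-γ + E. coli + ACs. In the IL-4 experiment it was 20274 to 29568 in ACs and 16663 to 26707 in IL-4 + ACs. Of the 10 markers, 0 rose and 5 fell with E. coli, 4 rose and 1 fell with IFN-γ, 3 rose and 5 fell with both, and 0 rose and 2 fell with IL-4. The eosinophil sum was 17701 to 19157 in ACs, 19474 to 20794 with E. coli, 10968 to 12493 with IFN-γ, 16389 to 18960 with both, 22700 to 25443 in the ACs of the IL-4 experiment and 25504 to 28366 with IL-4. Of the 9 eosinophil markers tested in the Type 1 experiment, 1 rose and 1 fell with E. coli, 0 rose and 5 fell with IFN-γ, and 1 rose and 2 fell with both, and of 12 tested with IL-4, 2 rose and 0 fell. The part of these markers in the results on the members was not tested. Sums of thymocyte markers reached at most 275, with Rag1, Rag2, Dntt or Cd5 at 0 in some groups, those of B cell markers 89.9 and those of mast cell markers 57.9. In bulk libraries, fewer cells of a type and less RNA per cell cannot be told apart.

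A gene was tested when its mean normalized count was at least 10 over the libraries of the fit, which held for 6 of the 10 members among the Type 1 libraries and for 7 among the IL-4 libraries. Calls were made by limma on log2(normalized count + 1), and needed both a p below 0.05 after Benjamini-Hochberg adjustment over all genes and a fold change of 1.5 or more. Egr3, Nr4a2 and Nr4a3 were not tested in either experiment, and Fosb was tested only with IL-4. All fold changes are against the ACs of the same experiment unless stated.

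**Figure D1:**
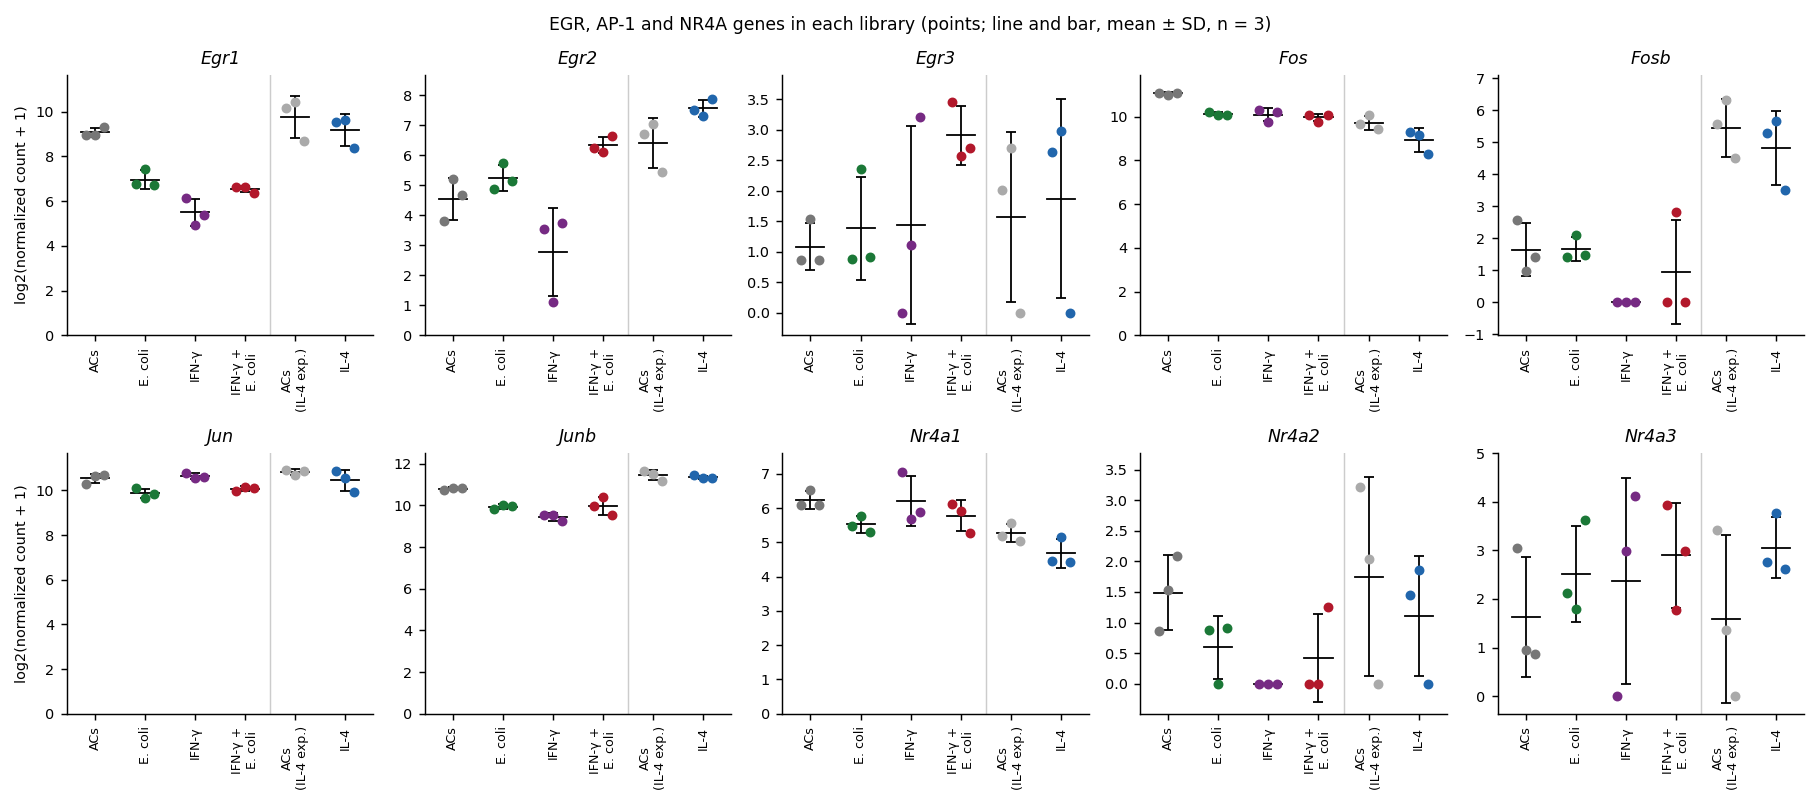
Level of each of the 10 genes in the 18 libraries, on the scale of log2(normalized count + 1), grouped by stimulus with the Type 1 experiment left of the grey line and the IL-4 experiment right of it (points, libraries; line and bar, mean ± SD, n = 3). Egr1, Fos and Junb sit lower in all 3 stimulated groups of the Type 1 experiment than in its ACs, while within that experiment Egr2 is lowest with IFN-γ and highest with IFN-γ + E. coli.

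In the Type 1 experiment Egr1, Fos and Junb fell with E. coli, with IFN-γ and with both. The largest of these changes was in Egr1, the prototype EGR factor, which fell 11.9-fold with IFN-γ. Egr2, its closest relative here, went the other way with IFN-γ + E. coli, rising 3.44-fold. With E. coli 0 members rose and 4 fell of 6 tested, where 5.05% of 10166 genes rose and 5.25% fell. With IFN-γ 0 rose and 4 fell, where 11.4% of genes rose and 9.96% fell. With both, 1 rose and 3 fell, where 14.7% rose and 17.2% fell. The median log2 fold change of the tested members was -0.79 with E. coli, -1.16 with IFN-γ and -0.65 with both, while the median of all genes lay between -0.05 and 0 in these 3 comparisons. All 3 comparisons share the same ACs libraries, so a value that is high or low in those moves all of them together.

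Egr1 had normalized counts in ACs of 493.61, 493.64 and 636.95. It stood at 107.16, 171.68 and 103.80 with E. coli, at 69.91, 29.80 and 41.04 with IFN-γ, and at 96.93, 97.72 and 81.40 with both. No stimulated library reached the lowest ACs library, and the IFN-γ libraries were also below those with E. coli, alone or with IFN-γ. The group means were 541 ± 82.7 (SD, n = 3) in ACs, 128 ± 38.3 with E. coli, 46.9 ± 20.7 with IFN-γ and 92 ± 9.2 with both. On the log2 scale Egr1 fell by 2.11 with E. coli (SE 0.26, adjusted p = 1.1e-05), by 3.58 with IFN-γ (SE 0.26, adjusted p = 3.7e-09) and by 2.54 with both (SE 0.26, adjusted p = 2.4e-07). These are 4.3-fold, 11.9-fold and 5.81-fold reductions. Counted from the largest decrease among 10166 genes, Egr1 ranked 13 with IFN-γ, 48 with E. coli and 161 with both.

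Egr2, a zinc finger factor known for its part in myelination and in lymphoid and myeloid cells, had normalized counts of 13.01, 35.66 and 24.47 in ACs. It stood at 28.46, 52.32 and 34.31 with E. coli, at 10.55, 1.15 and 12.31 with IFN-γ, and at 75.55, 68.41 and 99.34 with both. The libraries with both stimuli were above all others of the experiment and the IFN-γ libraries below all others, while ACs and E. coli overlapped. The log2 fold change was 0.69 with E. coli (SE 0.54, adjusted p = 0.46), which was not called. It was -1.77 with IFN-γ (SE 0.54, adjusted p = 0.019) and 1.78 with both (SE 0.54, adjusted p = 0.013). Both calls rested on low counts. With IFN-γ the call was lost without ACs replicate 2 (-1.45, adjusted p = 0.098), without ACs replicate 3 (-1.71, adjusted p = 0.06) and without IFN-γ + ACs replicate 2 (-0.93, adjusted p = 0.1), the last moving the fold by over 1.5 times. With both stimuli it was lost without ACs replicate 1 (1.41, adjusted p = 0.074).

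Egr3, another family member induced by calcineurin and MAPK signals, was near the limit of detection, with 0 to 7 reads per library in the Type 1 experiment. The 3 libraries with both stimuli held 7, 4 and 4 reads and lay above every ACs library (1, 2 and 1 reads) in normalized count. Fitted without a minimum count, its log2 fold change with both was 1.82 (SE 0.78, adjusted p = 0.12), which was not called.

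Fos, the inducible partner of JUN proteins, had normalized counts in ACs of 2201.31, 2059.96 and 2165.29. It stood at 1187.08, 1092.23 and 1093.39 with E. coli, at 1279.47, 860.80 and 1204.58 with IFN-γ, and at 1064.84, 872.18 and 1078.93 with both. All 9 stimulated libraries were below the ACs libraries. The IFN-γ libraries overlapped with the other 2 stimulated groups, and those with both stimuli were just below those with E. coli. Fos fell by 0.93 with E. coli (SE 0.14, adjusted p = 8.6e-05), by 0.96 with IFN-γ (SE 0.14, adjusted p = 2.4e-05) and by 1.1 with both (SE 0.14, adjusted p = 3.3e-06) on the log2 scale, which is 1.91-fold, 1.95-fold and 2.14-fold.

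Junb, a JUN protein that often restrains the activity of JUN, had normalized counts of 1686.56, 1802.82 and 1851.31 in ACs. It stood at 893.24, 1029.28 and 1014.23 with E. coli, at 742.62, 739.31 and 597.16 with IFN-γ, and at 997.84, 1346.14 and 738.14 with both. Again no stimulated library reached the ACs libraries, and the IFN-γ libraries were below those with E. coli alone. Junb fell by 0.86 with E. coli (SE 0.16, adjusted p = 0.0011), by 1.37 with IFN-γ (SE 0.16, adjusted p = 3e-06) and by 0.83 with both (SE 0.16, adjusted p = 0.00045), or 1.82-fold, 2.58-fold and 1.78-fold.

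Jun, the founding JUN protein, followed E. coli and not IFN-γ. Its normalized counts were 1266.14, 1606.67 and 1643.34 in ACs and 1780.70, 1490.07 and 1565.75 with IFN-γ, which overlapped. They were 1095, 817.54 and 918.35 with E. coli and 990.71, 1147.03 and 1116.18 with both, below every library of the groups without E. coli. Jun fell by 0.67 with E. coli (SE 0.13, adjusted p = 0.0016, 1.6-fold). Without E. coli + ACs replicate 2 the change was -0.58 (adjusted p = 0.015) and under 1.5-fold. With IFN-γ its log2 fold change was 0.1 (SE 0.13, adjusted p = 0.61). With both it was -0.47 (SE 0.13, adjusted p = 0.0089), or 1.38-fold lower, which did not reach 1.5-fold. It did under upper quartile scaling (-0.61, adjusted p = 0.0015) and without ACs replicate 1 (-0.59, adjusted p = 0.0038).

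Because Junb fell with IFN-γ where Jun did not, the ratio of Junb to Jun reads within a library, which does not depend on library size, was 0.381 to 0.496 with IFN-γ and 1.12 to 1.33 in ACs. It was 0.816 or above with E. coli and 0.661 to 1.17 with both, so the IFN-γ libraries were apart from the rest. These ratios are given as a description, and since the counts come from transcript ends they do not compare amounts of the proteins.

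Fosb, an alternative partner of JUN, held 1 to 6 reads per library in ACs and 2 to 4 with E. coli. No read was counted in any IFN-γ + ACs library, which allows up to 3 reads in each, so the difference from ACs was not detectable at this depth. Fitted without a minimum count its log2 fold change with IFN-γ was -1.64 (SE 0.69, adjusted p = 0.15).

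**Figure D2:**
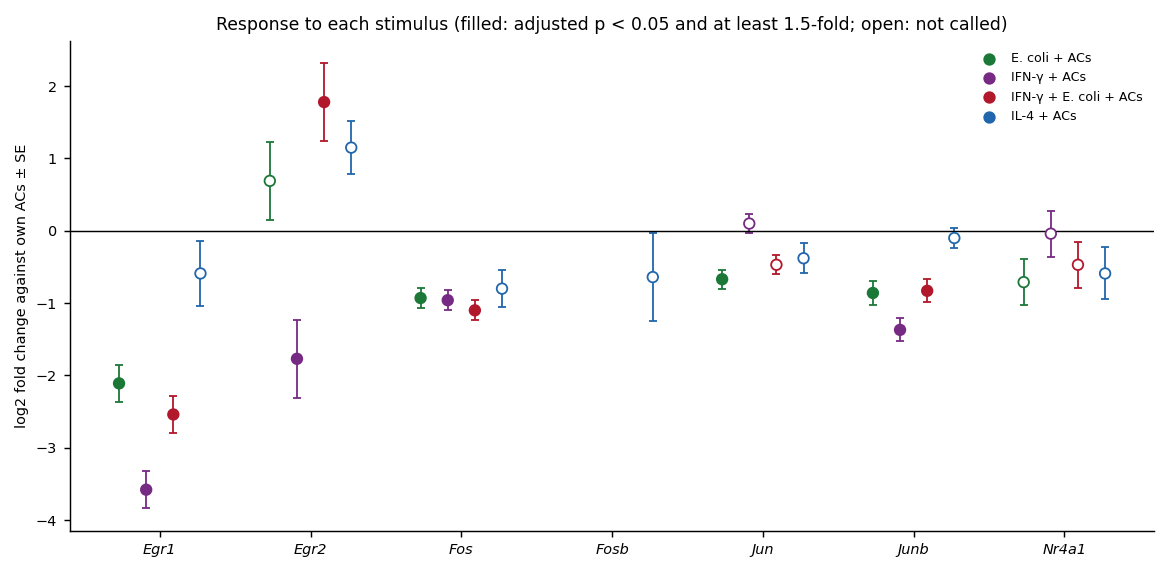
Log2 fold change of each tested member against the ACs of its own experiment, with SE from limma (green, E. coli; purple, IFN-γ; red, both; blue, IL-4; filled, called; open, not called). Egr1 lies between -3.58 and -2.11 with the 3 Type 1 stimuli, Egr2 changes sign between IFN-γ (-1.77) and both (1.78), and all 7 IL-4 values are open.

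Among the NR4A receptors, Nr4a1 was the only one tested. Its normalized counts were 66.68, 91.97 and 66.88 in ACs, 43.53, 53.96 and 38.70 with E. coli, 130.58, 50.43 and 57.46 with IFN-γ, and 68.42, 59.86 and 37.25 with both. The E. coli libraries were below the ACs libraries, and the other groups overlapped with ACs. The log2 fold change was -0.71 with E. coli (SE 0.32, adjusted p = 0.16), -0.04 with IFN-γ (SE 0.32, adjusted p = 0.95) and -0.47 with both (SE 0.32, adjusted p = 0.26), none of them called. IFN-γ + ACs replicate 1 was the highest library at 130.58, and the value with IFN-γ was -0.46 without it, 0.22 without replicate 2 and 0.13 without replicate 3.

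Nr4a2 was counted with 1, 2 and 4 reads in the ACs libraries and with none in the 3 IFN-γ + ACs libraries. Fitted without a minimum count, it was called with IFN-γ at a log2 fold change of -1.49 (SE 0.47, adjusted p = 0.046), but this value rests on so few reads that it depends on the constant added before the logarithm and is no bound. Nr4a3 held 0 to 13 reads per library in the Type 1 experiment. Its groups overlapped throughout, with log2 fold changes in the fit without a minimum of 0.89 with E. coli (SE 0.97, adjusted p = 0.71), 0.74 with IFN-γ (SE 0.97, adjusted p = 0.7) and 1.27 with both (SE 0.97, adjusted p = 0.44).

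When E. coli was added to cells that already had IFN-γ, the response of Egr1 and Egr2 was an increase. In IFN-γ + E. coli + ACs against IFN-γ + ACs, 2 members rose and 0 fell, where 5.96% of genes rose and 8.61% fell. Egr2 rose 11.7-fold (log2 3.55, SE 0.54, adjusted p = 0.00012), ranking 2 of 10166 genes from the largest increase, and this rank rests on an IFN-γ group whose libraries held 1.15 to 12.31. Without the lowest of these, IFN-γ + ACs replicate 2, the log2 change was 2.71 (adjusted p = 0.00019). Egr1 rose 2.05-fold (log2 1.04, SE 0.26, adjusted p = 0.0072), and no library of the pair overlapped. Without IFN-γ + ACs replicate 2 the change in Egr1 was 0.76 (adjusted p = 0.051), and it also missed the threshold with all 18 libraries in one fit (1.04, adjusted p = 0.063). Junb (0.53, SE 0.16, adjusted p = 0.026) and Jun (-0.57, SE 0.13, adjusted p = 0.0046) passed on p and not on fold in limma. Junb reached 1.5-fold by edgeR (0.59, adjusted p = 0.013) and DESeq2 (0.59, adjusted p = 0.0055), and Jun did under upper quartile scaling (-0.62, adjusted p = 0.003) and with array weights (-0.59, adjusted p = 0.013). Fos was at -0.13 (SE 0.14, adjusted p = 0.53) and Nr4a1 at -0.43 (SE 0.32, adjusted p = 0.38). Without IFN-γ + E. coli + ACs replicate 3, 4 members were called, with Junb at 0.75 and Jun at -0.59.

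In IFN-γ + E. coli + ACs against E. coli + ACs, 0 members were called by limma, where 9.79% of genes rose and 9.57% fell. No member had an unadjusted p under 0.05, and edgeR and DESeq2 on the recovered reads each called 1, Egr2 (1.08, adjusted p = 0.037, and 1.09, adjusted p = 0.024). In limma Egr2 was at 1.09 (SE 0.54, adjusted p = 0.15), with the 3 libraries of both stimuli above the E. coli libraries. Egr1 was at -0.43 (SE 0.26), Fos at -0.17 (SE 0.14), Jun at 0.21 (SE 0.13), Junb at 0.03 (SE 0.16) and Nr4a1 at 0.24 (SE 0.32), with adjusted p of 0.23 or more.

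The interaction measures how far the effect of E. coli with IFN-γ differs from its effect without IFN-γ. It was called for 4 of the 6 tested members, all positive and none negative, where it was positive in 3.16% and negative in 4.28% of genes. It was 3.14 for Egr1 (SE 0.36, adjusted p = 2.3e-05) and 2.86 for Egr2 (SE 0.76, adjusted p = 0.026), which ranked 11 and 18 of 10166 from the largest. It was 1.40 for Junb (SE 0.23, adjusted p = 0.00091) and 0.80 for Fos (SE 0.19, adjusted p = 0.015). It was 0.1 for Jun (SE 0.19, adjusted p = 0.8) and 0.28 for Nr4a1 (SE 0.45, adjusted p = 0.78). The median over the 6 was 1.1, against -0.03 over all genes.

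The interaction is also the change with both stimuli minus the sum of the 2 single effects. The values below therefore restate the 4 positive calls and are no second result. For Egr1 the sum of single effects was -5.68 and the observed change -2.54. For Egr2 the values were -1.07 and 1.78, for Junb -2.23 and -0.83, and for Fos -1.89 and -1.1. For the 3 genes that fell with each stimulus, the level with both differed from that with E. coli alone by -0.43 for Egr1, -0.17 for Fos and 0.03 for Junb, none of them called. Egr2 rose with both although neither single stimulus was called as raising it. For Jun the sum was -0.57 against -0.47 observed, and for Nr4a1 -0.75 against -0.47. The interaction of Egr2 was lost, at adjusted p of 0.063 to 0.08, without ACs replicate 2, ACs replicate 3, E. coli + ACs replicate 1 or E. coli + ACs replicate 3, and at 0.052 with no minimum count. Without IFN-γ + ACs replicate 2 it was 2.01 (adjusted p = 0.036). That of Fos was lost with all 18 libraries in one fit (adjusted p = 0.12).

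**Figure D3:**
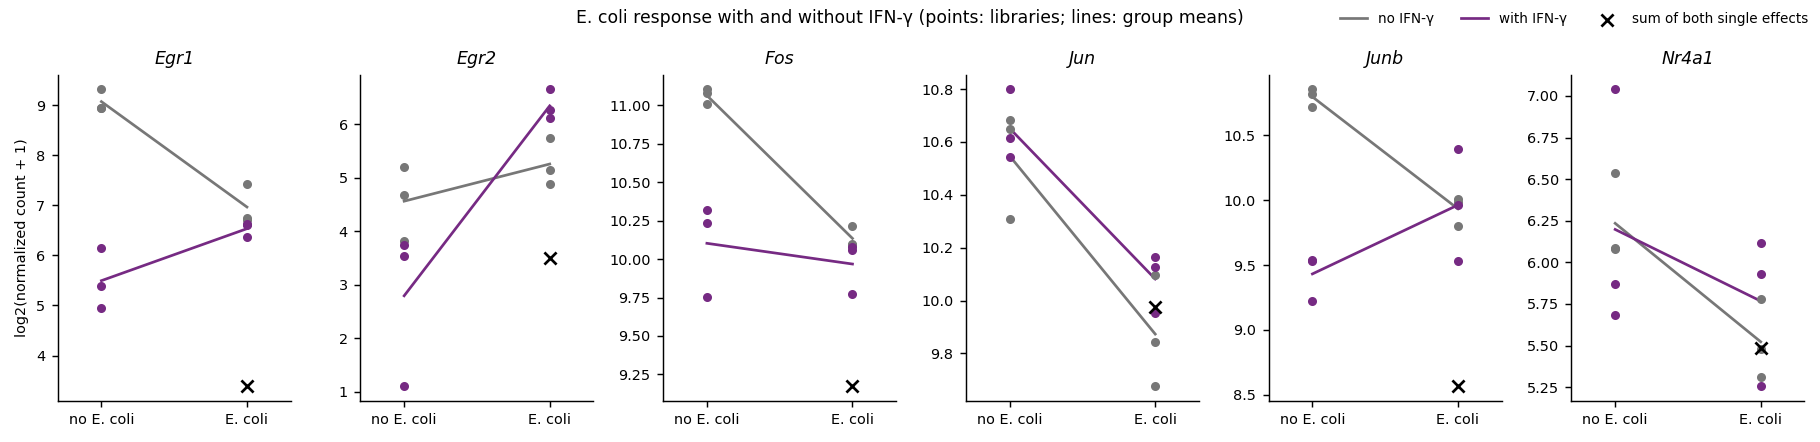
E. coli response without IFN-γ (grey) and with IFN-γ (purple) for the 6 tested members, on the scale of log2(normalized count + 1), with libraries as points, group means joined by lines and the level given by the sum of the 2 single effects as a cross. The gap between the cross and the mean with both stimuli is the interaction itself. In Egr1, Egr2, Fos and Junb the purple line rises more or falls less than the grey one and the cross lies below the libraries with both stimuli. In Jun and Nr4a1 the lines are closer to parallel.

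The members below the minimum count were fitted without it for the remaining comparisons, and none of these values was called. With E. coli Egr3 was at 0.3, Fosb at 0.02 and Nr4a2 at -0.89. With IFN-γ Egr3 was at 0.35, and with both stimuli Fosb was at -0.69 and Nr4a2 at -1.07. All of them rest on at most 7 reads per library. For both stimuli against IFN-γ alone, Egr3 was at 1.47, Fosb at 0.94, Nr4a2 at 0.42 and Nr4a3 at 0.53, and against E. coli alone they were at 1.53, -0.72, -0.18 and 0.38. Their interactions were 1.17, 0.92, 1.31 and -0.36 in the same order, with SE of 0.67 to 1.37.

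The balance between Egr2 and Egr1 differed between groups, and called changes in opposite directions were seen only with both stimuli against ACs. The ratio of Egr2 to Egr1 reads within a library was 0.0264, 0.0722 and 0.0384 in ACs, 0.266, 0.305 and 0.331 with E. coli, and 0.779, 0.7 and 1.22 with both. It was 0.151, 0.0385 and 0.3 with IFN-γ. E. coli, alone or with IFN-γ, thus set every library above the ACs libraries, and the IFN-γ libraries overlapped with both the ACs and the E. coli libraries. In the IL-4 experiment the ratio was 0.091, 0.0948 and 0.104 in ACs and 0.242, 0.203 and 0.703 with IL-4, and the groups did not overlap. The last of these values comes from a shallow library.

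**Figure D4:**
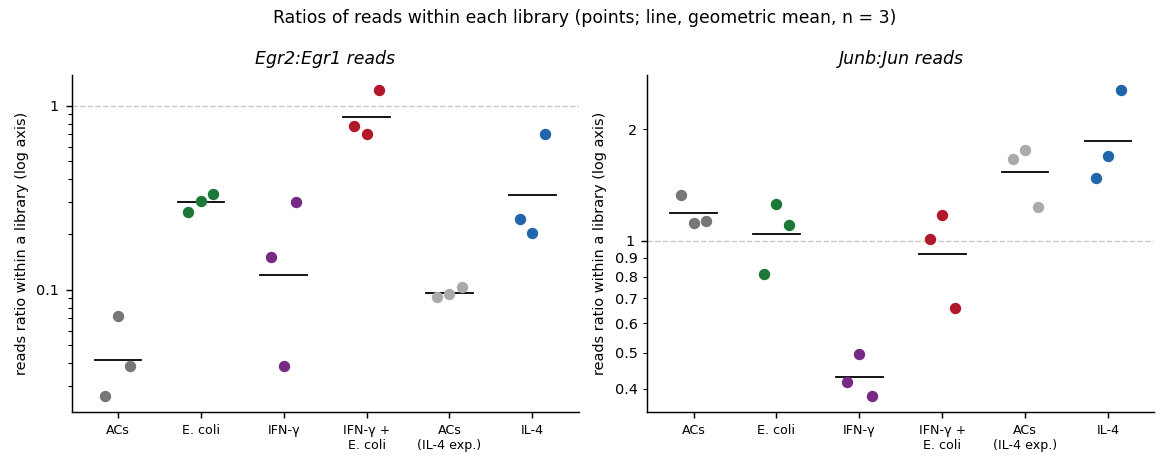
Ratio of Egr2 to Egr1 reads (left) and of Junb to Jun reads (right) within each library, on log axes, by group (points, libraries; line, geometric mean, n = 3). The Egr2 to Egr1 ratio lies between 0.7 and 1.22 in the libraries with IFN-γ + E. coli and at 0.0722 or below in ACs of the same experiment, and the Junb to Jun ratio is at 0.496 or below only with IFN-γ alone.

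With IL-4, the cytokine of Type 2 activation, Egr2 was higher and Fos lower in every library than in ACs, but neither passed the threshold over all genes. How many of all genes were likewise without overlap was not counted. Of 7 tested members 0 were called, where 0.74% of 10669 genes rose and 0.347% fell. Unadjusted limma p was under 0.05 for 2 of the 7, Egr2 and Fos, and for 1030 of the 10669 genes. By edgeR and DESeq2 0 members were called as well. With the shallow replicate 3 libraries left out of both groups, 2 libraries a group remained and 2 members were called, Egr1 and Fos, both lower. In that fit 329 of the 10669 genes were higher and 294 lower.

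Egr2 had normalized counts of 181.34, 158.08 and 231.30 with IL-4 and 104.52, 131.57 and 42.89 in the ACs of that experiment. All IL-4 libraries were above all ACs libraries, and the means were 190 ± 37.4 and 93 ± 45.4 (SD, n = 3). The log2 fold change was 1.15 (SE 0.37, unadjusted p = 0.011 and adjusted p = 0.33 by limma). Without the shallow libraries it was 0.53 (adjusted p = 0.086), which is under 1.5-fold and was not called. It was called with no minimum count (adjusted p = 0.022) and with libraries weighted by their quality (0.71, adjusted p = 0.014).

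Fos had normalized counts of 635.56, 574.34 and 313.54 with IL-4 and 815.12, 1075.12 and 686.26 in ACs, again without overlap. The log2 fold change was -0.80 (SE 0.26, unadjusted p = 0.013 and adjusted p = 0.35 by limma). It was called at -0.63 without the shallow libraries (adjusted p = 0.019), at -0.8 with no minimum count (adjusted p = 0.029) and at -0.8 with all 18 libraries in one fit (adjusted p = 0.044).

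Egr1 stood at 750.85, 779.31 and 328.96 with IL-4 and at 1148.99, 1387.31 and 412.83 in ACs, so the shallow library was the lowest of each group and the groups overlapped through it. The log2 fold change was -0.59 (SE 0.45, adjusted p = 0.72). It was -0.72 without the shallow libraries (adjusted p = 0.0036) and -0.62 with weighted libraries (adjusted p = 0.026), both called.

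The other members tested with IL-4 overlapped between groups. Fosb, at 37.66, 49.53 and 10.28 with IL-4 and 45.87, 77.85 and 21.45 in ACs, had a log2 fold change of -0.64 (SE 0.61, adjusted p = 0.77). Jun was at -0.38 (SE 0.21, adjusted p = 0.61), Junb at -0.10 (SE 0.14, adjusted p = 0.84) and Nr4a1 at -0.59 (SE 0.36, adjusted p = 0.65). Fosb was thus counted in every library of this experiment, whereas in the Type 1 experiment it held at most 6 reads, and experiment and any other difference between these cultures cannot be told apart. Egr3 held 0 to 13 reads, Nr4a2 0 to 11 and Nr4a3 0 to 24 reads per library, with overlapping groups. In the fit without a minimum count their log2 fold changes were 0.3 for Egr3 (SE 1.17), -0.65 for Nr4a2 (SE 1.07) and 1.46 for Nr4a3 (SE 1.2), none called.

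Whether a member responded differently to IL-4 than to IFN-γ + E. coli was tested on all 18 libraries, each response against its own ACs. The difference was positive for 2 members and negative for 0 of 7, where it was positive in 9.67% and negative in 10.8% of 10414 genes. It was 1.95 for Egr1 (SE 0.53, adjusted p = 0.012) and 0.74 for Junb (SE 0.23, adjusted p = 0.027), both less reduced with IL-4. For Junb the call was lost without the shallow libraries (0.63, adjusted p = 0.066), with no minimum count (adjusted p = 0.078) and without any one of 5 libraries: ACs replicate 2 (0.73), ACs replicate 3 (0.71), IFN-γ + E. coli + ACs replicate 3 (0.52), IL-4 + ACs replicate 1 (0.69) and ACs replicate 3 of the IL-4 experiment (0.6), at adjusted p of 0.054 to 0.077. Egr2 was at -0.63 (SE 0.75, adjusted p = 0.59), Fos at 0.3 (SE 0.29, adjusted p = 0.5), Fosb at 0.05 (SE 1.21), Jun at 0.09 (SE 0.25) and Nr4a1 at -0.12 (SE 0.48), none called. Fitted without a minimum count, Egr3 was at -1.52 (SE 1.37), Nr4a2 at 0.43 (SE 0.99) and Nr4a3 at 0.18 (SE 1.53), none called.

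Over the 6 groups the order of the Egr1 means was ACs of the IL-4 experiment (983 ± 508), IL-4 + ACs (620 ± 252), ACs of the Type 1 experiment (541 ± 82.7), E. coli (128 ± 38.3), both (92 ± 9.2) and IFN-γ (46.9 ± 20.7). The first 3 overlapped and each of the last 3 steps had no overlap between neighbours. For Egr2 the order was IL-4 + ACs (190 ± 37.4), ACs of the IL-4 experiment (93 ± 45.4), both (81.1 ± 16.2), E. coli (38.4 ± 12.4), ACs of the Type 1 experiment (24.4 ± 11.3) and IFN-γ (8 ± 6), in which the ACs of the IL-4 experiment overlapped with both, and E. coli with ACs. For Fos the Type 1 ACs were highest (2142 ± 73.5), followed by E. coli (1124 ± 54.4), IFN-γ (1115 ± 223), both (1005 ± 116), ACs of the IL-4 experiment (859 ± 198) and IL-4 + ACs (508 ± 171), with overlap among the 4 middle groups. These orders are descriptions that mix the experiments. The means in ACs alone differed between the experiments for all 3 genes, with overlapping libraries only for Egr1. Between groups of different experiments, stimulus and experiment cannot be told apart, and such differences were not tested.

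In the wider AP-1 family more genes rose than fell in the 3 comparisons in which Fos and Junb fell. Of 13 listed partners, all tested, 3 rose and 0 fell with E. coli and 5 rose and 1 fell with IFN-γ. With both, 8 rose and 0 fell. Over all genes 5.05% rose and 5.25% fell with E. coli, 11.4% and 9.96% with IFN-γ and 14.7% and 17.2% with both. The median log2 fold changes of the partners were 0.3, 0.44 and 0.82, where those of all genes lay between -0.05 and 0. The partners, like the lists below, were chosen with earlier results of these data known. The largest increase was that of Atf3, a stress-induced ATF protein that pairs with JUN proteins, at 1.29 with E. coli (SE 0.18, adjusted p = 5.6e-05), 4.65 with IFN-γ (SE 0.18, adjusted p = 6.7e-13) and 4.23 with both (SE 0.18, adjusted p = 1.4e-12). Its mean normalized count was 62.4 in ACs, 154 with E. coli, 1586 with IFN-γ and 1192 with both. With IFN-γ the others that rose were Batf2, a BATF protein inducible by interferon (3.01), Maff, a small MAF protein without an activation domain (2.07), Fosl1, a FOS family protein (2.01), and Jdp2, a repressor that pairs with JUN (1.21), while Batf3 fell (-1.35). With both, Maff (2.81), Batf2 (2.48), Fosl1 (2.12), Jdp2 (1.15) and Mafk (0.96) were next after Atf3. With E. coli alone Fosl1 (1.09) and Mafg (0.59) rose beside Atf3.

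In IFN-γ + E. coli + ACs against E. coli + ACs, 9 of the 13 were higher and 1 lower, with Atf3 at 2.95, Maff at 2.06 and Batf2 at 1.82, in the comparison where no member was called. Of all genes 9.79% rose and 9.57% fell there. Added to IFN-γ, E. coli raised Fosl2 (0.8) and Mafk (0.72) and lowered 0 of the 13, where 5.96% of all genes rose and 8.61% fell. The interaction was called for 3 partners, negative for Atf3 (-1.71, SE 0.25, adjusted p = 0.00035) and Mafg (-0.7), and positive for Fosl2 (1.09). Over all genes it was positive in 3.16% and negative in 4.28%. With IL-4 the sole call was Batf3, higher at 1.27 (SE 0.21, adjusted p = 0.02), where 0.74% of all genes rose and 0.347% fell. Between IL-4 and IFN-γ + E. coli 9 of 13 differed, all with a negative difference, against 10.8% of all genes with a negative one.

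Of the EGR relatives, Egr4 had no read in any library. Nab2, a corepressor that binds EGR proteins and is itself induced by them, rose by 1.1 with E. coli (SE 0.28, adjusted p = 0.012), 2.25 with IFN-γ (SE 0.28, adjusted p = 5.6e-06) and 2.65 with both (SE 0.28, adjusted p = 4.7e-07), so that it rose in each of the 3 comparisons in which Egr1 fell. Its mean normalized count went from 16.4 in ACs to 36.2, 80.7 and 111. Nab1, the other NAB corepressor, rose with both stimuli (0.63, SE 0.17, adjusted p = 0.0059). Neither was called with IL-4.

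**Figure D5:**
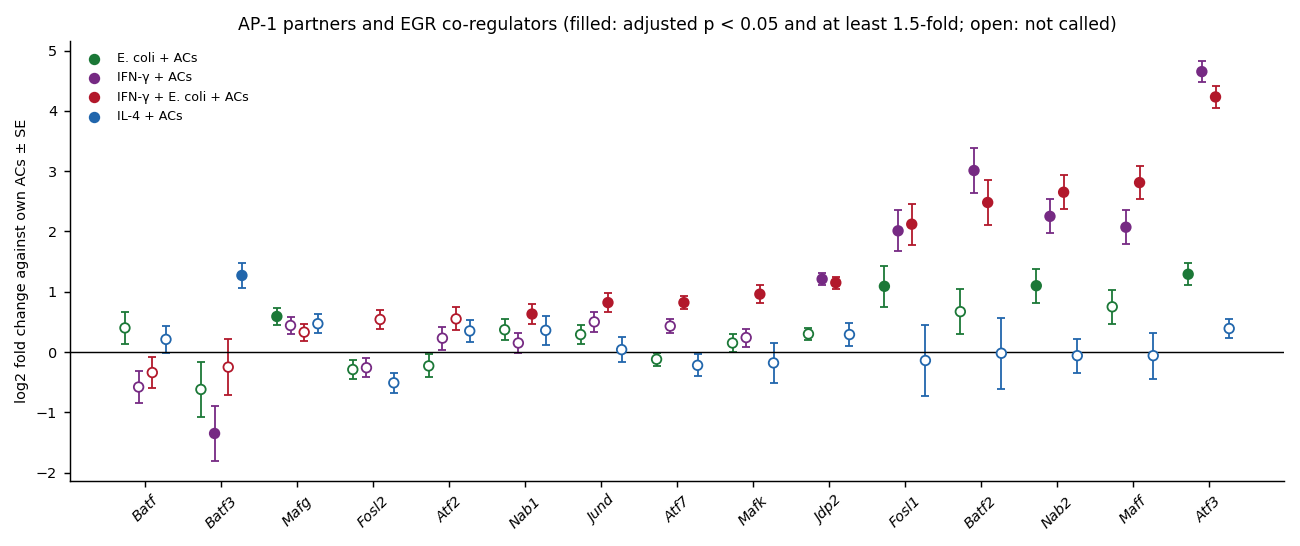
Log2 fold change against own ACs, with SE from limma, of the 13 AP-1 partners and the EGR corepressors Nab1 and Nab2, ordered by their value with IFN-γ + E. coli (green, E. coli; purple, IFN-γ; red, both; blue, IL-4; filled, called; open, not called). Atf3 reaches 4.65 with IFN-γ, and Batf3 is the single filled IL-4 point.

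Among the factors that read immediate early promoters, calls went in both directions. Of 8 listed SRF, TCF and CREB factors, 0 rose and 1 fell with E. coli, 1 rose and 2 fell with IFN-γ and 2 rose and 3 fell with both. Over all genes 5.05% rose and 5.25% fell with E. coli, 11.4% and 9.96% with IFN-γ and 14.7% and 17.2% with both. Mrtfa, a coactivator of SRF that responds to actin, fell in all 3 comparisons, with log2 fold changes of -0.78 with E. coli, -1.55 with IFN-γ and -2.35 with both. Elk3, a ternary complex factor, fell with IFN-γ (-1.51) and with both (-1.86), and Mrtfb fell with both (-1.13). Crem, a CREB family gene that encodes activators and repressors, rose by 2.16 with IFN-γ and by 2.14 with both, and Elk4 rose by 1.07 with both. No interaction was called in this list, where it was positive in 3.16% and negative in 4.28% of all genes. None of the 8 was called with IL-4, where 0.74% of all genes rose and 0.347% fell.

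Of 10 genes of the MAPK cascade, 1 rose and 1 fell with E. coli, 2 rose and 1 fell with IFN-γ, and 2 rose and 1 fell with both, numbers near those that the shares over all genes give for a list of this size. In the same order Map2k1, the kinase that activates ERK, rose by 0.73, 1.04 and 1.8 on the log2 scale, and Mapk14, the p38α kinase, fell, with log2 fold changes of -0.95, -1.24 and -1.63. These are transcript levels and say nothing of kinase activity.

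Other immediate early genes changed in both directions. Of 34 listed and 30 tested, 7 rose and 6 fell with E. coli, 2 rose and 7 fell with IFN-γ, 11 rose and 6 fell with both, and none was called with IL-4. Over all genes 5.05% rose and 5.25% fell with E. coli, 11.4% and 9.96% with IFN-γ and 14.7% and 17.2% with both. With IL-4 0.74% of all genes rose and 0.347% fell. The falls with both were near the share of all genes, and the rises with IFN-γ were below it. With IFN-γ Klf2, a Krüppel-like factor of quiescent cells (-2.01, adjusted p = 6.5e-09), Ier2 (-1.7, adjusted p = 2.5e-08) and Btg2, an antiproliferative gene (-1.6, adjusted p = 4.8e-09), fell, as did Klf10 (-1.1) and Bhlhe40 (-1.03), while Csrnp1 rose (1.62). With E. coli Phlda1 (2.21), Dusp2 (1.48) and Dusp5 (1.09) rose, and Klf10 (-1.52), Klf4 (-1.52) and Klf2 (-1.44) fell. With both, Dusp6, a phosphatase of ERK (1.67, adjusted p = 1.6e-08), Phlda1 (1.63) and Csrnp1 (1.4) rose, and Klf2 (-1.64), Ier2 (-1.3) and Btg2 (-1.06) fell. The interaction was positive for 7 and negative for 1 of the 30, where it was positive in 3.16% and negative in 4.28% of all genes. Among the called genes Klf10 (2.27), Klf2 (1.81), Btg2 (1.49), Dusp6 (1.4) and Klf4 (1.09) were positive, as for Egr1 and Junb, while Dusp2 was negative (-1.54).

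The genes whose pattern was most like a member were ranked by Pearson r of log2(normalized count + 1) over the 12 libraries of the Type 1 experiment, among 10165 other genes. For Egr1 they were Btg2 (0.966), Cdc42ep3 (0.965), Igf1r (0.955), 4930581F22Rik (0.953) and Il16 (0.949). For Fos they were Exoc6b (0.947), Igf1r (0.941), Aldh9a1 (0.937), Anxa1 (0.935) and Glipr1 (0.934). For Nr4a1 they were Nom1 (0.829), Mrpl49 (0.827), Parg (0.817), Traf3ip1 (0.817) and Gm35339 (0.804). Between members, r was 0.92 for Egr1 and Junb, 0.86 for Egr1 and Fos, 0.70 for Fos and Junb, 0.62 for Jun and Nr4a1 and -0.57 for Egr2 and Jun. The points share 4 groups and their libraries, so these values describe the group pattern.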

How the data were processed

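The deposited table holds a signal per gene and library: the authors counted reads on genes from CEL-Seq2 libraries and divided them by a DESeq2 size factor. The submitters' processing notes name TopHat2 2.1.0, Bowtie2 2.2.6, HTSeq 0.6.1, cutadapt 1.10, Trim Galore, FastQC 0.11.5, DESeq2 1.26.0 and GRCm38. The study's methods describe this route and a fastp and STAR route, and which one made the table is not stated. In every library 100.0% of values were whole multiples of 1 read within 0.01, so whole reads were recovered. Identifiers of 54409 of 54446 genes were matched to symbols with the version ignored.

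Groups came from the labels, with 3 libraries in each of 6 groups. The main test was limma 3.58.1 (R 4.3.3, lmFit and eBayes with trend) on log2(normalized count + 1), for genes averaging 10 or more in the fit, on the 12 libraries of the Type 1 experiment, the 6 of the IL-4 experiment, or all 18 for the difference between responses. A gene was called at a Benjamini-Hochberg adjusted p under 0.05, adjusted over all genes tested, and a change of at least 1.5-fold. With 3 libraries a group no test on 1 gene alone was used. The fit was also run on simulated counts with changes larger than 1.5-fold. The interaction was not simulated, and no result above rests on that run.

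Alternatives were a pseudocount of 5, no minimum and a minimum mean of 50, the replicate number as a block, upper quartile scaling, array weights, one fit to all 18 libraries, calls without a fold threshold, edgeR 4.0.16 and DESeq2 1.42.0 on recovered reads, each library left out in turn, and the shallow replicate 3 libraries of the IL-4 experiment left out. Reads per library set the precision, and a count under 3 reads was read as not detected, which covers counting error only. All 10 members are named in every comparison, and other genes come from lists with at most 6 named per list and comparison, those with the largest changes among called genes. The members and lists were chosen with earlier results of these data known. Promoter sequences are those of RefSeq on GRCm38.p6 and positions those of GENCODE vM21.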

Additional observations from a re-analysis of the deposited data

Results flagged for a closer look

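For 4 members the effect of E. coli differed between cells with and without IFN-γ by limma's interaction term. The difference on the log2 scale was 3.14 for Egr1, 2.86 for Egr2, 1.4 for Junb and 0.8 for Fos. In Egr1 and Junb the E. coli effect was negative without IFN-γ and positive with it (1.04 and 0.53, the latter under 1.5-fold), in Fos it was negative without IFN-γ (-0.93) and near 0 with it (-0.13), and in Egr2 it was positive in both, at 0.69 and 3.55. The peritoneal macrophage marker sum was lower with E. coli both without IFN-γ (median 8592 against 16549) and with it (9308 against 25374). Its part in the results on the members was not tested. Groups of 3 libraries were not screened for single outlying libraries.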

How the results depend on the processing

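Of 1098 alternative values of the members, 1026 kept their direction and side of the threshold, 20 lost a call, 26 gained one and 26 changed sign, and none of those that changed sign was called in the main fit. The cause of these changes was not tested, except that a mean of at least 50 drops Egr2 from the Type 1 fit and that leaving out libraries leaves fewer samples.

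Counts of called members moved by over 1.5 times in 4 comparisons. For E. coli in the presence of IFN-γ the count was 2, against 4 with no fold threshold, 1 with a mean of at least 50, 1 with all 18 libraries in one fit, and 2 to 4 with single libraries left out. For IFN-γ + E. coli against E. coli it was 0, against 1 by edgeR, 1 by DESeq2 and 0 to 1 with single libraries left out. For IL-4 it was 0, against 2 with no minimum, 2 with array weights, 1 with all 18 libraries, 2 without the shallow libraries and 0 with any single library left out. For IL-4 minus IFN-γ + E. coli it was 2, against 1 with no minimum, 1 without the shallow libraries and 1 to 2 with single libraries left out. In the other 4 comparisons it was 4, and 3 to 4 over single libraries left out.

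Values that changed sign were Nr4a1 with IFN-γ (-0.04), at 0.0031 with array weights, 0.07 by edgeR, 0.08 by DESeq2 and -0.46 to 0.22 over left-out libraries, and Jun with IFN-γ (-0.02 to 0.17). Junb in IFN-γ + E. coli against E. coli was -0.08 under upper quartile scaling and -0.19 to 0.25 over left-out libraries. With IL-4, Fosb ranged from -1.12 to 0.02 and Junb from -0.23 to 0.0044. In IL-4 minus IFN-γ + E. coli, Fosb was -0.39 with a pseudocount of 5, -0.31 by edgeR, -0.33 by DESeq2 and -0.42 to 1.00 over left-out libraries, Nr4a1 was 0.0044 under upper quartile scaling and -0.38 to 0.05, and Jun was -0.11 to 0.35.

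Residuals of same-numbered libraries correlated at -0.09 to 0.09 in 18 pairs of the Type 1 experiment. In 3 pairs of the IL-4 experiment they correlated at 0 to 0.02. These values show no pairing by replicate number, but groups of 3 libraries cannot exclude shared mice or preparations. Both shallow libraries of the IL-4 experiment carry the number 3. With the replicate block the counts of called members were 4 with E. coli, 4 with IFN-γ, 4 with both, 2 and 0 for both stimuli against IFN-γ alone and E. coli alone, 4 for the interaction, 0 with IL-4 and 2 for the difference, as without it, and genes higher with IL-4 went from 79 to 45.

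Upper quartile scaling moved the median of all genes from -0.05 to -0.18 with both stimuli, from -0.04 to -0.15 for both against E. coli and from 0.04 to 0.17 for IL-4 minus both, and the share of calls that were higher from 46.1% to 34.4%, from 50.6% to 36.3% and from 47.3% to 59.3%. No called member changed direction.

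Counts over all genes moved by over 1.5 times as follows. Genes lower with E. coli went from 534 to 870 with array weights. With a mean of at least 50, genes lower with IFN-γ went from 1013 to 645 and with both from 1746 to 963. Genes higher for both against IFN-γ went from 606 to 963 with no fold threshold. For the interaction, 321 positive became 485 by DESeq2 and 435 negative became 285 with all 18 libraries, and without single libraries they fell to 162 and 239 (without E. coli + ACs replicate 1). For IL-4, 79 higher and 37 lower became 125 and 83 with no minimum, 389 and 356 with array weights, 127 and 85 by edgeR, 128 and 81 by DESeq2, 119 and 101 with all 18 libraries, 329 and 294 without the shallow libraries, and at least 31 and 16 without single libraries. For IL-4 minus both, 1007 higher became 1542 with array weights.

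Depth limits Egr3, Nr4a2, Nr4a3 and, in the Type 1 experiment, Fosb, which mostly held under 10 reads per library.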
